A study of Mus musculus with 4 samples.

Results

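Genes were compared between cultures with and without bone morphogenetic protein 2 (BMP-2), with the presence or absence of interleukin-17A (IL-17A) held as an additive term. The cells were PαS cells, mesenchymal cells that carry PDGFRα and Sca1 and lack CD45, CD11b, Ter119, CD31 and CD34, sorted from the injured tissue in and around the femur of wild-type C57BL/6J mice. All of them were kept for 7 days in osteogenic medium, in 4 conditions with 1 library each: BMP-2 at 500 ng ml−1, no cytokine, IL-17A at 10 ng ml−1 together with BMP-2 at 500 ng ml−1 (the IL-17A + BMP-2 library), and IL-17A at 10 ng ml−1 alone. With 1 library per condition, culture and cytokine cannot be told apart, and the sources used here do not give the number of mice behind each library. For experiments on bone regeneration the mice were female and 6 to 8 weeks of age. The mRNA of a whole culture cannot tell fewer cells of one kind from less RNA in each cell. BMP-2 was therefore compared with its own counterpart in each IL-17A state: BMP-2 over no cytokine, and IL-17A + BMP-2 over IL-17A. These ratios share no library. Of 46517 genes listed, 8607 averaged 50 exon reads or more per library, and in 4454 of these (51.7%) both ratios lay on the same side of 1, 2228 of them higher with BMP-2 and 2226 lower. The signs alone chose these genes, so their common direction is a description and not a test.

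BMP ligands bind pairs of type I and type II receptor kinases, which phosphorylate SMAD1, SMAD5 and SMAD9. Together with SMAD4 these enter the nucleus and switch on a short list of direct targets, among them the *Id* genes, the inhibitory *Smad6* and *Smad7* and the pseudoreceptor *Bambi*, several of which damp the signal in turn. In mesenchymal cells the pathway is known for driving the formation of cartilage and bone, through the transcription factors RUNX2 and SP7 (Osterix), and it can also favour fat cells.

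The 4 libraries held 4190612 to 4719412 exon reads, of which 53.1 to 53.9% were spliced and 10.6 to 11% not unique to a gene. The reads were scaled by the trimmed mean of M values (TMM, factors of 0.983 to 1.02), and each ratio was given an exact (Clopper–Pearson) 95% interval. Reads amplified by PCR, with no molecular identifiers, can repeat a molecule, so the intervals cover counting error only, and with 1 library per condition no ratio had a replicate check. Sca1 (*Ly6a*), the sort marker, had 7636 to 10973 reads in the libraries. *Pecam1* (CD31) was at 0 in all 4, and the genes of the surface proteins that the sort excludes summed to 45 reads with BMP-2, 100 with no cytokine, 0 with IL-17A + BMP-2 and 45 with IL-17A. None of the 11 endothelial, 10 lymphocyte and 6 erythroid markers reached a mean of 50 reads.

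Across all genes tested, the BMP-2 ratio without IL-17A said little about the ratio with IL-17A. Pearson's r of the log2 ratios was 0.038 and Spearman's rho 0.039 over 8607 genes, which are not independent of one another and share 4 libraries. For comparison, the IL-17A log2 ratios in the presence and absence of BMP-2 gave an r of 0.119. Among the 839 genes that averaged 1000 reads or more, r was 0.045 for BMP-2 and 0.458 for IL-17A, and 54.4% of genes had the same sign in both BMP-2 ratios. In these abundant genes the log2 ratio had an SD across genes of 0.27 without and 0.40 with IL-17A, whereas counting alone gave a median of 0.05. Among genes with 50 to 100 reads the SDs were 1.26 and 1.33, against 0.25 from counting. A ratio beyond its counting interval was therefore common, and the counts over gene lists are to be read against those over all genes.

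**Figure D1:**
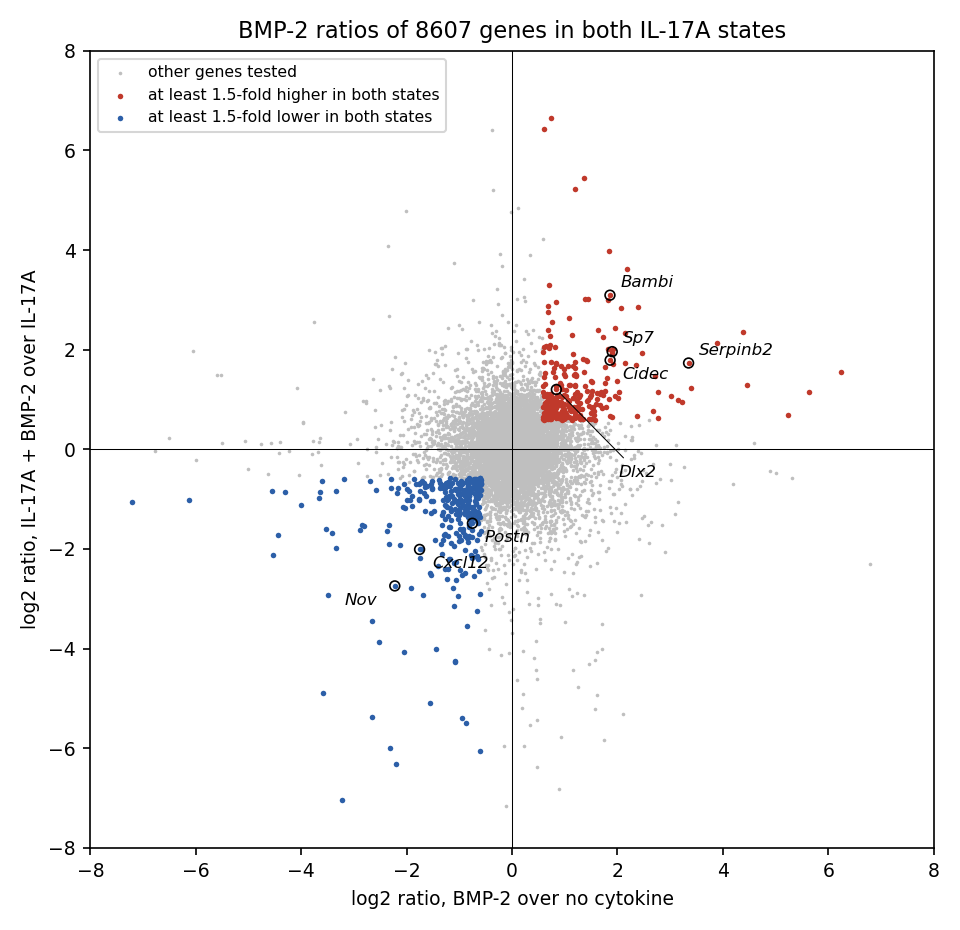
Log2 ratio of IL-17A + BMP-2 over IL-17A (vertical) against the log2 ratio of BMP-2 over no cytokine (horizontal), 1 point per gene for the 8607 genes tested. The 283 genes at least 1.5-fold higher in both states beyond counting error are in red and the 326 lower ones in blue, with a library at 0 reads set to 3 reads. Across genes r is 0.038, and *Sp7*, *Bambi*, *Dlx2*, *Cidec* and *Serpinb2* lie in the upper right and *Cxcl12*, *Nov* and *Postn* in the lower left.

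**Figure D2:**
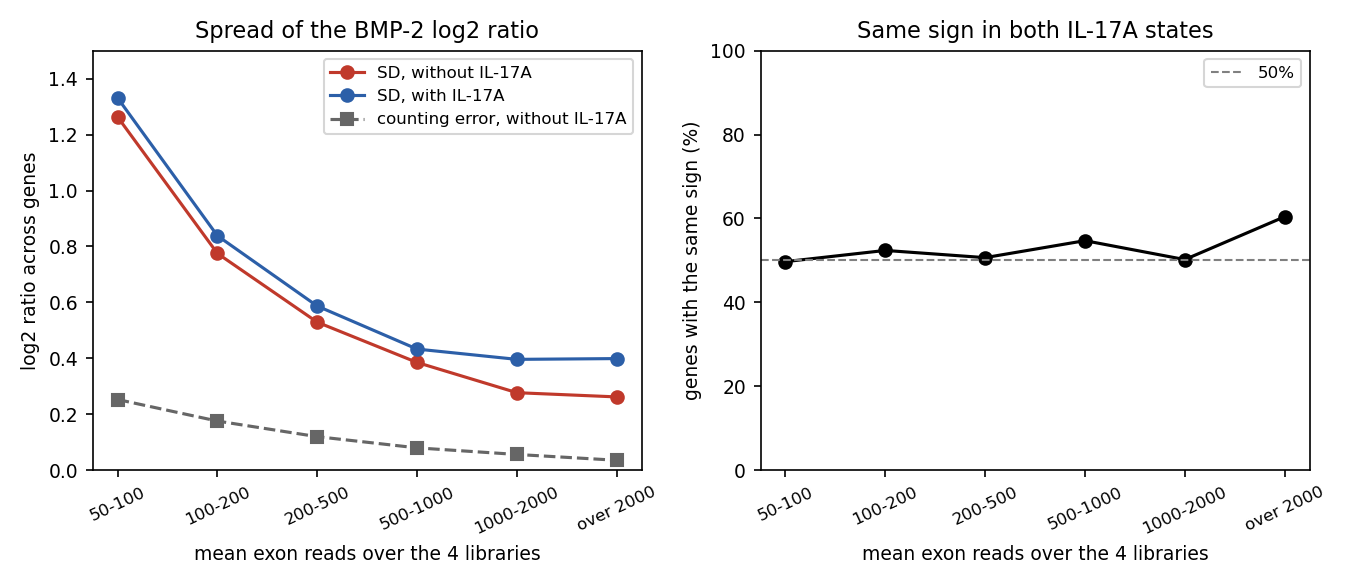
Left, SD across genes of the BMP-2 log2 ratio without (red) and with (blue) IL-17A in 6 classes of mean exon reads, with the median counting error of the ratio without IL-17A in grey. Right, the percentage of genes in each class whose ratios have the same sign. The spread lies above counting error in every class, and the same-sign share is between 49.7 and 60.4%.

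The additive model (edgeR's quasi-likelihood test over all 4 libraries, with IL-17A as a term) called 0 of 8607 genes for BMP-2 at a Benjamini-Hochberg adjusted p of 0.05, that is 0.0%. The lowest adjusted p was 0.922. At an unadjusted p under 0.05 there were 380 genes (4.42%). The model left 1 residual degree of freedom, which measures how far the BMP-2 ratios differ between the IL-17A states. DESeq2 called 5 genes (0.0581%), namely *Serpinb2* as higher and *Cxcl12*, *Postn*, *Ubr1* and *Rnf213* as lower. Beyond counting error in both states, 901 genes (10.5%) were higher with BMP-2 and 993 (11.5%) lower, while 1591 (18.5%) were apart in opposite directions, 827 (9.61%) higher without and lower with IL-17A and 764 (8.88%) the reverse. At 1.5-fold or more in both states there were 283 higher (3.29%) and 326 lower genes (3.79%), with a median of 104 and 105 mean reads, against 207.5 for all genes tested. Just inside that limit lay *A4galt* (ratios 1.5 and 2.21) and *Ier2* (0.667 and 0.652), and just outside it *Npnt* (1.94 and 1.5) and *Dlg1* (0.577 and 0.667). In what follows, "higher" and "lower" refer to ratios beyond counting error in both states, without a call by edgeR, and the first ratio of a gene is that without IL-17A and the second that with IL-17A.

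Most of the measured direct targets of BMP-SMAD signalling were higher with BMP-2. Of the 22 listed, 13 had the reads to be measured, and 8 of these were higher and 1 lower in both states, against 10.5% and 11.5% of all genes tested. Taken by state, 8 were higher and 1 lower without IL-17A (all genes: 30.5% and 31.1%), and 9 higher and 1 lower with IL-17A (31.5% and 32.5%). The median log2 ratio of the 13 genes was 0.28 without and 0.37 with IL-17A, where that of all genes was 0.00 in both. No member was called by edgeR and 3 had an unadjusted p under 0.05. Counted from spliced reads alone, 6 of the members were higher in both states.

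*Bambi*, a receptor-like protein without a kinase domain that blocks BMP and TGF-β receptors, stood furthest apart. It had 107 exon reads with BMP-2, against 29 with no cytokine, and 117 with IL-17A + BMP-2, against 12 with IL-17A. The ratios were 3.62 (2.38 to 5.66) and 8.54 (4.71 to 17.0), so that both libraries with BMP-2 lay above both without it, and edgeR gave an unadjusted p of 0.0154. The homeobox gene *Dlx2*, on chromosome 2 at 71543408 to 71546754 of mm10, had 124 reads with BMP-2, against 68 with no cytokine, and 147 with IL-17A + BMP-2, against 56 with IL-17A. Its ratios were 1.79 (1.32 to 2.44) and 2.30 (1.68 to 3.18), with an unadjusted p of 0.102, and again the libraries with and without BMP-2 did not overlap. The share of all genes tested without such overlap was not counted. Non-overlap is therefore only a description of single genes, here and below. *Smad6*, which competes with the receptor-activated SMADs, had 584 reads with BMP-2, against 418 with no cytokine, and 802 with IL-17A + BMP-2, against 311 with IL-17A, or ratios of 1.37 and 2.26. *Smad7*, the other inhibitory SMAD, had 265 reads with BMP-2, against 164 with no cytokine, and 338 with IL-17A + BMP-2, against 192 with IL-17A (1.59 and 1.54). Both inhibitory SMADs thus had higher levels in each library with BMP-2 than in either without it.

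The *Id* genes encode helix-loop-helix proteins that bind and hold back differentiation factors. *Id1* had 962 reads with BMP-2, against 604 with no cytokine, and 719 with IL-17A + BMP-2, against 532 with IL-17A (1.56 and 1.18). *Id2*, given after its values were seen, had 337 reads with BMP-2, against 272 with no cytokine, and 319 with IL-17A + BMP-2, against 151 with IL-17A (1.22 and 1.85). *Id3*, the most abundant of the family, had 5417 reads with BMP-2, against 4858 with no cytokine, and 5509 with IL-17A + BMP-2, against 4059 with IL-17A. Its ratios of 1.09 and 1.19 exceeded counting error yet were small beside the spread of abundant genes, and from spliced reads the first was 1.00. *Atoh8*, a helix-loop-helix factor downstream of BMP receptors, was similar, with ratios of 1.10 and 1.21. *Fst*, which encodes the activin- and BMP-binding protein follistatin, was the 1 target that was lower, with 1623 reads with BMP-2, against 1928 with no cytokine, and 699 with IL-17A + BMP-2, against 1288 with IL-17A (0.826 and 0.475). From spliced reads its ratios were 0.734 and 0.965. Of the 9 targets under the filter, the BMP antagonist *Nog* had 20 reads with BMP-2, against 9 with no cytokine, and 35 with IL-17A + BMP-2, against 11 with IL-17A. *Dlx3*, *Grem1* and *Smad9* also had both ratios above 1. Those of *Dlx5* and *Msx2* were both below 1, and those of *Hey1* and *Gata3* lay on opposite sides of 1. *Runx3* was at 0 throughout.

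Promoter sequences are shown for 3 of these targets and for *Cxcl12*, a chemokine gene described further on, to set genes higher and lower with BMP-2 side by side. These windows were printed because each holds a motif that was searched. Each line gives the 300 bases from 250 before to 50 after the RefSeq start (GRCm38.p6), 5′ to 3′ on the strand of the gene. Letters in capitals mark GGCGCC, a GC-rich element through which SMAD1 and SMAD5 are known to bind, or GTCTAGAC, the palindrome bound by SMAD3 and SMAD4. Both read the same on either strand.
Dlx2 promoter, chr2:71546705-71547004, minus strand: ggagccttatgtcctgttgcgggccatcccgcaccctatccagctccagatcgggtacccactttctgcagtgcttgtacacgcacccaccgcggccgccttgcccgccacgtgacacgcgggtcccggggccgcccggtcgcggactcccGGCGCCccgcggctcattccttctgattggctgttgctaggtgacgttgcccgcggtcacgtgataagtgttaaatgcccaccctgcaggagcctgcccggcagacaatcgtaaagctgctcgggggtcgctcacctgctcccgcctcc
Id2 promoter, chr12:25096043-25096342, minus strand: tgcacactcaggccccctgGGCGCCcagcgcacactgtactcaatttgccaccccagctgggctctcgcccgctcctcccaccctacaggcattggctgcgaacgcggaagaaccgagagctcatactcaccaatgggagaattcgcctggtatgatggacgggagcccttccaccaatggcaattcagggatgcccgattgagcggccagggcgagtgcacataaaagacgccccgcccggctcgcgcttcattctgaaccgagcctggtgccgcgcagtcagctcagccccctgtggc
Smad6 promoter, chr9:64022010-64022309, minus strand: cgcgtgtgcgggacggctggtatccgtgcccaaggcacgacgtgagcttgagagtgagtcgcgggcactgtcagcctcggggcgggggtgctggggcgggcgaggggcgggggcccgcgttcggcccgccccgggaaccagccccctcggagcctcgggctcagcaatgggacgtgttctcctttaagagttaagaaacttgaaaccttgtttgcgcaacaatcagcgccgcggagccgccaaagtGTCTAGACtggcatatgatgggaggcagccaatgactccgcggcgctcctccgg
Cxcl12 promoter, chr6:117168285-117168584, plus strand: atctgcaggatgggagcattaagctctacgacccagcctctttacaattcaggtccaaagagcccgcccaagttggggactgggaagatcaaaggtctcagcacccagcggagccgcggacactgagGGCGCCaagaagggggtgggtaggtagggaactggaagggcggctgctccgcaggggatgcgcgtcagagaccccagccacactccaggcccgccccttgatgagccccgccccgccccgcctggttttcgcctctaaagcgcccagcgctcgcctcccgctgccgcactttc

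Counted from 1 at the 5′ end of the window, GGCGCC stood at position 152 in *Dlx2*, 20 in *Id2* and 128 in *Cxcl12*, and GTCTAGAC at 247 in *Smad6*. GGCGCC occurred in 26.1% of the 272 promoters of genes 1.5-fold higher in both states and in 23.3% of the 330 promoters of lower genes, where it occurred in 22.3% of the 8622 promoters of genes tested and in 11.9% of all 32851. GTCTAGAC occurred in 0 of the promoters of either set, and in 0.162% of those of genes tested. A promoter was at hand for 5 of the 8 targets that were higher and for 6677 of the 8607 genes tested. The windows of the other 2 of these 5, *Id3* and *Atoh8*, held neither motif and are not printed.

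**Figure D3:**
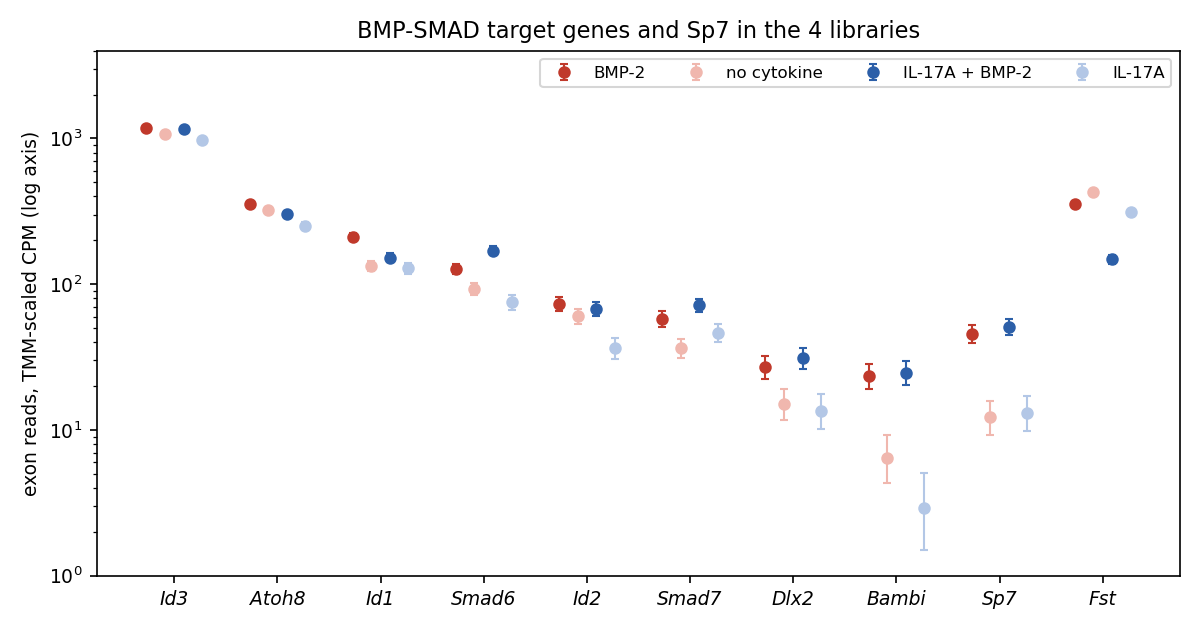
Exon reads after TMM scaling, expressed as CPM (log axis), of 9 BMP-SMAD target genes and *Sp7* in the libraries with BMP-2, no cytokine, IL-17A + BMP-2 and IL-17A, with exact 95% counting intervals. *Bambi* and *Sp7* show the widest gaps between libraries with and without BMP-2, and *Fst* is the gene whose order is turned round.

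Ligands and receptors of the pathway were spread in both directions. Of 15 ligands of the BMP and activin families 5 were measured, 1 of them higher and 1 lower (all genes: 10.5% and 11.5%). *Gdf15*, a distant member of the family induced by cell stress, had 140 reads with BMP-2, against 59 with no cytokine, and 223 with IL-17A + BMP-2, against 70 with IL-17A (2.33 and 2.79). *Bmp6*, a BMP ligand, was lower, with 94 reads with BMP-2, against 142 with no cytokine, and 19 with IL-17A + BMP-2, against 54 with IL-17A (0.650 and 0.308). Endogenous *Bmp4* was at 10 reads with BMP-2, 91 with no cytokine, 10 with IL-17A + BMP-2 and 0 with IL-17A. Among 7 measured receptors, 2 were higher. *Acvr1* (ALK2), a type I receptor, had 200 reads with BMP-2, against 71 with no cytokine, and 174 with IL-17A + BMP-2, against 100 with IL-17A (2.77 and 1.52), and the co-receptor *Eng* had ratios of 1.23 and 1.20. *Bmpr1a* (ALK3), the main type I receptor for BMP-2, was within counting error without IL-17A (0.929) and at 0.546 with it.

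Of 10 measured antagonists of BMP, *Bambi* was higher in both states and 3 were lower, where 11.5% of all genes tested were lower. Without IL-17A 3 were higher and 3 lower (all genes: 30.5% and 31.1%), with a median log2 ratio of −0.04. With it 2 were higher and 7 lower (31.5% and 32.5%), with a median of −0.34. The lower ones in both states were *Fst* and the genes of 2 BMP-binding proteins, *Bmper* (0.743 and 0.691) and *Crim1* (0.791 and 0.862). *Fstl1*, a follistatin-like protein and the most abundant of them, was within counting error without IL-17A (1.02) and at 0.760 with it. From spliced reads 1 of the 10 was lower in both states. Of 11 measured SMAD genes and SMAD regulators 2 were higher, *Smad6* and *Smad7*, and 0 lower (all genes: 10.5% and 11.5%). *Smad1*, a receptor-activated SMAD of the BMP branch, had ratios of 0.925 and 0.888, and the common partner *Smad4* 1.21 and 1.25, each of them with at least 1 interval that held 1.

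*Sp7*, the transcription factor that osteoblast precursors need to become osteoblasts, had the largest ratios common to both states among the factors of this lineage. It lies on chromosome 15 at 102356609 to 102366325 of mm10. It had 209 exon reads with BMP-2, against 55 with no cytokine, and 240 with IL-17A + BMP-2, against 54 with IL-17A. The ratios were 3.73 (2.76 to 5.12) and 3.89 (2.89 to 5.33), the groups did not overlap, and edgeR gave an unadjusted p of 0.00403. Few of these reads crossed a splice junction, 10 with BMP-2 and 0 with no cytokine, and 10 with IL-17A + BMP-2 and 2 with IL-17A. Of 12 measured osteoblast factors 2 were higher and 1 lower (all genes: 10.5% and 11.5%), and from spliced reads 0 were higher. *Prrx2*, a homeobox gene of limb and craniofacial mesenchyme, had ratios of 1.27 and 1.26. *Zfp521*, a zinc-finger protein that binds and restrains RUNX2, was lower, with 113 reads with BMP-2, against 223 with no cytokine, and 83 with IL-17A + BMP-2, against 151 with IL-17A (0.497 and 0.481). *Runx2* itself, named after its values were seen, was within counting error in both states, with 103 reads with BMP-2, 103 with no cytokine, 80 with IL-17A + BMP-2 and 59 with IL-17A. *Dlx5*, a homeobox target upstream of *Sp7*, was at 0 reads with BMP-2, 5 with no cytokine, 0 with IL-17A + BMP-2 and 15 with IL-17A.

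Genes of bone matrix and mineralization did not move one way. Of 12 measured, 3 were higher and 3 lower (all genes: 10.5% and 11.5%), with medians of −0.01 and −0.36 on the log2 scale. *Alpl*, the alkaline phosphatase that frees phosphate for mineral, had 364 reads with BMP-2, against 209 with no cytokine, and 1435 with IL-17A + BMP-2, against 864 with IL-17A (1.71 and 1.45). The libraries with and without BMP-2 overlapped here, since IL-17A alone exceeded BMP-2 alone. *Spp1* (osteopontin), a mineral-binding matrix protein, was of the same form, with 4769 reads with BMP-2, against 3729 with no cytokine, and 11039 with IL-17A + BMP-2, against 6094 with IL-17A (1.26 and 1.59). The phosphate carrier *Slc20a2* was higher (1.77 and 1.30) and its relative *Slc20a1* lower (0.711 and 0.672, with 47.5% of its reads not unique to it). *Col1a2*, a chain of type I collagen, was lower (0.873 and 0.594), and *Col1a1*, the other chain, was within counting error without IL-17A (1.01) and at 0.735 with it. *Postn* (periostin), a matrix protein of the periosteum, was lowest, with 3026 reads with BMP-2, against 5004 with no cytokine, and 922 with IL-17A + BMP-2, against 2259 with IL-17A. Its ratios were 0.594 (0.567 to 0.621) and 0.357 (0.331 to 0.386), and DESeq2 called it with an adjusted p of 0.0187. Late osteoblast and osteocyte genes gave almost no reads: *Ibsp* and *Phex* were at 0 in all libraries, and *Bglap* had at most 3 and *Dmp1* at most 1.

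**Figure D4:**
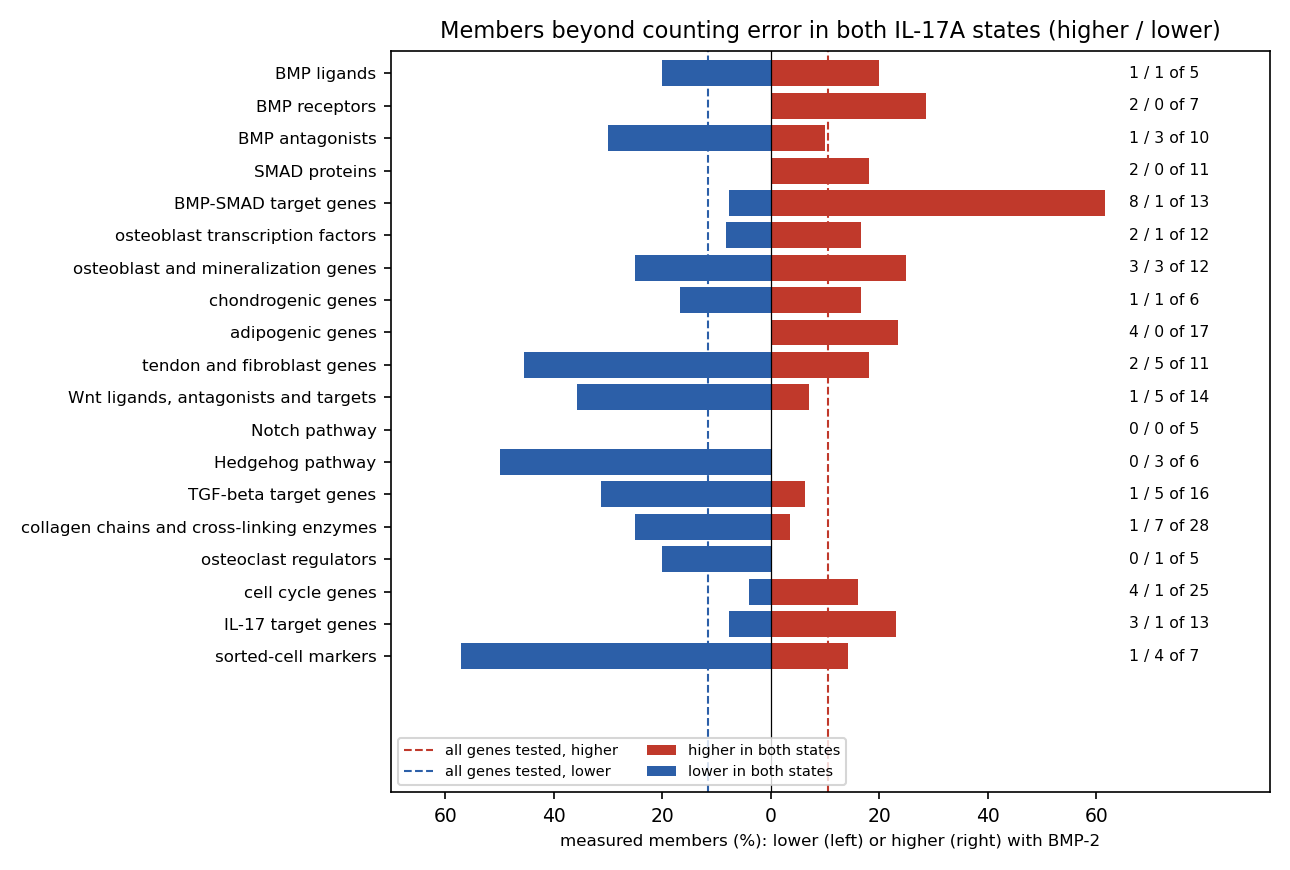
Percentage of measured members of each gene list that were lower (left, blue) or higher (right, red) with BMP-2 beyond counting error in both IL-17A states, with the counts at the right. Dashed lines give the shares over all genes tested, 10.5% higher and 11.5% lower. The BMP-SMAD targets, 8 of 13, reach furthest to the right.

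Fibrillar matrix and its processing enzymes were lower more often than higher. Of 28 measured collagen chains and cross-linking enzymes 1 was higher and 7 lower in both states, against 10.5% and 11.5% of all genes tested. In 14 of the 28 the ratios lay on opposite sides of 1. With IL-17A 16 were lower and 5 higher (all genes: 32.5% and 31.5%). Without it 12 were lower and 6 higher (31.1% and 30.5%), while the medians of −0.06 without and −0.14 with IL-17A were small. *Col3a1*, the chain of type III collagen, had ratios of 0.812 and 0.600, *Col8a1*, a short-chain collagen, 0.674 and 0.736, and the collagen chaperone *Serpinh1* (HSP47) 0.894 and 0.773. Members with many reads have narrow intervals, so that even small differences were beyond counting error. The ratios of *Serpinh1* lay within 1 SD of the abundant genes (log2 0.27 without and 0.40 with IL-17A). *Plod1*, a lysyl hydroxylase, was the gene that was higher (1.33 and 1.21).

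Of 16 measured targets of TGF-β 1 was higher and 5 lower in both states, against a background of 10.5% and 11.5% of all genes tested. Without IL-17A 7 were higher and 6 lower (all genes: 30.5% and 31.1%), with a median log2 ratio of 0.00. With it 3 were higher and 11 lower (31.5% and 32.5%), with a median of −0.21. In 9 of the 16 the ratios lay on opposite sides of 1. *Thbs1* (thrombospondin 1), which activates latent TGF-β, had 29012 reads with BMP-2, against 39573 with no cytokine, and 15677 with IL-17A + BMP-2, against 26644 with IL-17A (0.720 and 0.515). *Fn1* (fibronectin) had ratios of 0.924 and 0.568, *Ctgf* 0.890 and 0.905, *Cyr61* 0.915 and 0.881 and *Acta2*, the smooth-muscle actin of myofibroblasts, 0.953 and 0.857. All except the ratios of *Thbs1* and the second of *Fn1* were within 1 SD of the abundant genes. *Bhlhe40*, a transcriptional repressor, was higher (1.79 and 1.55). Of 11 measured tendon and fibroblast genes 2 were higher and 5 lower, from spliced reads 1 and 3. *Fmod* (fibromodulin), a proteoglycan that shapes collagen fibrils in tendon, had 2275 reads with BMP-2, against 1218 with no cytokine, and 1984 with IL-17A + BMP-2, against 1060 with IL-17A. Its ratios of 1.83 (1.71 to 1.97) and 1.64 (1.52 to 1.77) correspond to log2 values of 0.87 and 0.71, and the libraries with and without BMP-2 did not overlap. From spliced reads its ratios were 1.39 (1.09 to 1.79) and 1.22 (0.934 to 1.61), so that neither reached 1.5 and the second interval held 1. *Dcn* (decorin), a proteoglycan of the same family, stood opposite, with 472 reads with BMP-2, against 1077 with no cytokine, and 346 with IL-17A + BMP-2, against 425 with IL-17A (0.430 and 0.713). The matrix glycoprotein *Tnc* (0.756 and 0.714) and the early growth factor response gene *Egr1* (0.411 and 0.596) were lower as well.

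Of 14 measured Wnt genes 1 was higher and 5 lower in both states (all genes: 10.5% and 11.5%), although from spliced reads 0 and 1. Without IL-17A 6 were higher and 7 lower (all genes: 30.5% and 31.1%), and with it 2 higher and 6 lower (31.5% and 32.5%). The secreted Wnt inhibitors *Sfrp1* (0.754 and 0.536), *Sfrp2* (0.846 and 0.330), *Dkk2* (0.513 and 0.637) and *Dkk3*, a relative of the Dickkopf inhibitors (0.735 and 0.696), were 4 of these. The fifth was *Wisp2* (CCN5), a Wnt-induced matricellular protein, with 6199 reads with BMP-2, against 9120 with no cytokine, and 3905 with IL-17A + BMP-2, against 6015 with IL-17A (0.667 and 0.568). The intracellular Wnt antagonist *Nkd2* was higher (1.12 and 1.21). Of 6 measured Hedgehog genes 2 were higher and 4 lower without IL-17A (all genes: 30.5% and 31.1%). With it 1 was higher and 4 lower (31.5% and 32.5%). In both states 0 were higher and 3 lower. The 3 were the co-receptors *Boc* (0.473 and 0.433) and *Gas1* (0.533 and 0.713) and the signal transducer *Smo* (0.716 and 0.542). Of 5 measured Notch genes 0 were higher or lower in both states.

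More adipogenic genes were higher in the ratio with IL-17A than in that without it. Of 17 measured, 4 were higher and 0 lower in both states, against 10.5% and 11.5% of all genes tested. With IL-17A 12 were higher and 0 lower (all genes: 31.5% and 32.5%). Without it 5 were higher and 5 lower (30.5% and 31.1%). *Cidec*, which enlarges lipid droplets, had 207 reads with BMP-2, against 56 with no cytokine, and 300 with IL-17A + BMP-2, against 76 with IL-17A. Its ratios were 3.63 (2.69 to 4.97) and 3.46 (2.68 to 4.51), without overlap between the libraries with and without BMP-2, and the unadjusted p was 0.00356. The fatty acid transporter *Cd36* (1.45 and 1.58), the lipase *Lpl* (1.16 and 1.75) and the hormone resistin, *Retn* (2.86 and 1.78), were the others. *Fabp4*, the fatty acid binding protein of fat cells, was at 1.02 without and 1.90 with IL-17A. Whether the response of the list differed between the states was not tested. Of 22 chondrogenic genes 6 were measured, with *Prg4* (lubricin), the lubricant of joint surfaces, higher (1.35 and 3.91) and *Comp*, a cartilage matrix protein, lower (0.886 and 0.806).

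*Cxcl12*, the chemokine that holds haematopoietic and other cells in the marrow, was lower in both states and had the lowest unadjusted p of all 8607 genes in edgeR. It lies on chromosome 6 at 117168535 to 117181367 of mm10. It had 210 exon reads with BMP-2, against 696 with no cytokine, and 268 with IL-17A + BMP-2, against 945 with IL-17A. The ratios were 0.296 (0.253 to 0.346) and 0.248 (0.216 to 0.285), with no overlap between libraries with and without BMP-2. The unadjusted p was 0.000177 and the adjusted p by DESeq2 0.000253. Spliced reads gave ratios of 0.303 and 0.289. It was the 1 lower gene among 5 measured regulators of osteoclasts, of which 0 were higher (all genes: 11.5% lower and 10.5% higher). *Vdr*, the vitamin D receptor, was at 1.61 without IL-17A and within counting error with it (1.11), and *Tnfrsf11b* (osteoprotegerin) had 18 reads with BMP-2, 85 with no cytokine, 17 with IL-17A + BMP-2 and 15 with IL-17A.

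Of 7 measured markers used to sort or describe such mesenchymal cells, 4 were lower and 1 higher (all genes: 11.5% and 10.5%). *Pdgfra* itself had 375 reads with BMP-2, against 739 with no cytokine, and 695 with IL-17A + BMP-2, against 698 with IL-17A (0.498 and 0.872). The adhesion genes *Cd44* (0.741 and 0.632), *Itgb1* (0.769 and 0.686) and *Vcam1* (0.841 and 0.552) were the others, while the co-receptor *Eng*, given above, was the higher one and *Ly6a* had ratios of 1.05 and 1.03. Among 25 cell cycle genes 4 were higher and 1 lower, against 10.5% and 11.5% of all genes tested. In 13 of the 25 the ratios lay on opposite sides of 1. *Rrm2*, a subunit of ribonucleotide reductase, had 5646 reads with BMP-2, against 4794 with no cytokine, and 7643 with IL-17A + BMP-2, against 3130 with IL-17A (1.16 and 2.14). The mitotic genes *Ccnb2* (1.27 and 2.05), *Ccna2* (1.58 and 1.42) and *Aurka* (1.73 and 1.34) were higher too, and *Rrm1*, the other subunit, was lower (0.839 and 0.780). Of 13 measured IL-17 target genes 3 were higher and 1 lower (all genes: 10.5% and 11.5%). The chemokine *Cxcl5* had 306 reads with BMP-2, against 189 with no cytokine, and 6263 with IL-17A + BMP-2, against 4882 with IL-17A (1.59 and 1.12), a BMP-2 difference far smaller than that between the IL-17A states. *Ccl7*, another chemokine, had ratios of 1.48 and 1.18 and the matrix protease *Mmp3* of 1.98 and 2.12. The lower one was *Steap4*, a metalloreductase, with 0 reads with BMP-2, against 37 with no cytokine, and 64 with IL-17A + BMP-2, against 101 with IL-17A.

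Among the genes that led the ranking by the smaller of their ratios, *Sp7* was the tenth and *Bambi* the twelfth from the top. First was *Ganc*, an α-glucosidase, with 187 reads with BMP-2, against 35 with no cytokine, and 132 with IL-17A + BMP-2, against 16 with IL-17A (5.25 and 7.22). *Dhx34*, a helicase of nonsense-mediated decay, came next, with 64 reads with BMP-2, against 0 with no cytokine, which makes it at least 20.9-fold higher with a floor of 3 reads, and 175 with IL-17A + BMP-2, against 30 with IL-17A (5.11). The RNA-binding protein gene *Caprin2* (4.52 and 12.3), the centriolar *Mdm1* (4.40 and 5.05) and the centrosomal *Cep128* (3.88 and 5.41) were also among the 15. The proliferin gene *Prl2c3*, of the prolactin family, had ratios of 4.18 and 7.15, and *Prl2c2*, another member taken up after its values were seen, 3.76 and 3.28. Since 55.8% and 57.4% of their reads were not unique, the shares of these near-identical genes are uncertain. *Ankrd13b*, *Mfsd3*, *Gnb1l*, *Prr14l*, *Gm14296* and *Gm10036* were further members, with ratios of 3.53 to 15.8, of which *Gm14296* and *Gm10036* had 71.7% and 91.3% of reads not unique.

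The 22 macrophage and myeloid markers summed to 348 RPKM with BMP-2, against 124 with no cytokine, and 84.6 with IL-17A + BMP-2, against 114 with IL-17A, with 4, 6, 10 and 9 members at 0 in the same order. *Lyz2* (lysozyme), the most abundant of them, had 1728 reads with BMP-2, against 548 with no cytokine, and 410 with IL-17A + BMP-2, against 509 with IL-17A. *Ptprc* (CD45) had 4 reads or fewer in every library and *Adgre1* (F4/80) was at 0 in both with BMP-2. *Lyz2* made up 269 RPKM of the sum with BMP-2 and 63.7 RPKM with IL-17A + BMP-2, the largest part of each. Several markers under the filter were also higher with BMP-2 than with no cytokine. Among them were *C1qb* (99 against 41 reads), *Mpeg1* (60 against 0), *Laptm5* (52 against 8) and *Spi1* (34 against 0). With IL-17A + BMP-2 against IL-17A these had 12 against 15, 1 against 0, 2 against 16 and 0 against 5. *Csf1r*, *Adgre1* and *Mrc1* were lower with BMP-2 than with no cytokine, and *Cd14* was within counting error (17 against 19 reads). Not all other markers followed *Lyz2* in both states. *Csf1r*, the receptor for CSF1, had ratios of 0.461 and 1.48. *Tyrobp*, an adaptor of myeloid receptors, had 30 reads with BMP-2, against 11 with no cytokine, and 15 with IL-17A + BMP-2, against 1 with IL-17A. The lysosomal marker *Cd68* had 50 reads with BMP-2, against 33 with no cytokine, and 10 with IL-17A + BMP-2, against 0 with IL-17A. The part of such cells in the ratios was not tested. Of 9 osteoclast markers 1 was measured, the protease *Ctsk*, within counting error in both states (0.942 and 1.10). Of 14 skeletal muscle markers 2 were measured, the actin gene *Acta1*, which was lower (0.653 and 0.651), and *Des* (desmin), at 0.791 and 0.516.

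**Figure D5:**
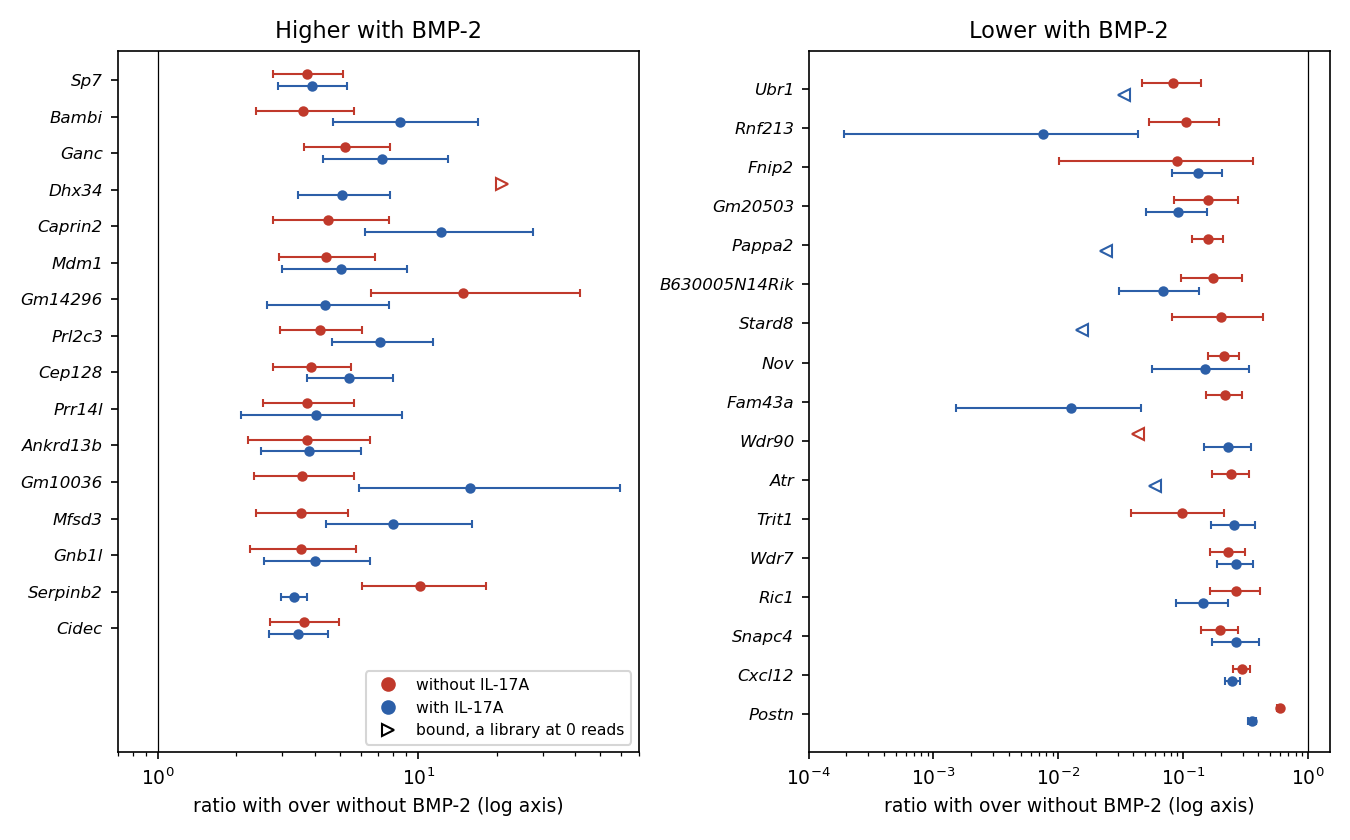
Ratio with over without BMP-2 (log axis) and exact 95% counting interval, without IL-17A (red) and with IL-17A (blue), for 14 of the 15 highest and the 15 lowest genes, with *Serpinb2*, *Cidec*, *Cxcl12* and *Postn* added. Open triangles are bounds for a library at 0 reads. *Cxcl12* and *Postn* have the narrowest intervals among the lower genes.

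At the other end, *Ubr1*, a ubiquitin ligase, had 16 reads with BMP-2, against 188 with no cytokine, and 0 with IL-17A + BMP-2, against 78 with IL-17A, the second being at least 29.7-fold lower. *Rnf213*, a very large ubiquitin ligase, had 12 reads with BMP-2, against 111 with no cytokine, and 1 with IL-17A + BMP-2, against 115 with IL-17A (0.106 and 0.00761, with an interval of 0.000191 to 0.0433 for the ratio with IL-17A). Both were called by DESeq2, with adjusted p values of 0.00834 and 0.0245. *Pappa2*, a protease that releases insulin-like growth factors from their binding proteins, had 61 reads with BMP-2, against 378 with no cytokine, and 0 with IL-17A + BMP-2, against 109 with IL-17A. Its first ratio was 0.158. The second was 41.5-fold lower with the same floor, with an interval that ended at 0.0301. *Nov* (CCN3), a matricellular protein known to bind BMP-2, had 61 reads with BMP-2, against 280 with no cytokine, and 7 with IL-17A + BMP-2, against 41 with IL-17A (0.214 and 0.149). It is of the same CCN family as *Ctgf*, *Cyr61* and *Wisp2*. The DNA damage kinase *Atr*, the RhoGAP gene *Stard8* and *Wdr90* each had 1 library with BMP-2 at 0 reads, and the tRNA-modifying enzyme *Trit1* (0.0982 and 0.254), *Wdr7* (0.230 and 0.265) and *Ric1* (0.266 and 0.146) were lower in both states. *Fam43a*, *B630005N14Rik*, *Fnip2*, *Gm20503* and *Snapc4* completed the 15, and 63.3% of the reads of *Fnip2*, 100% of those of *Gm20503* and 43.9% of those of *Snapc4* were not unique to them. Of the genes 1.5-fold lower in both states 17 had a library at 0 reads, of the higher ones 2. *Eln* (elastin), chosen after its values were seen, had 43 reads with BMP-2, against 219 with no cytokine, and 26 with IL-17A + BMP-2, against 71 with IL-17A (0.193 and 0.321).

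*Serpinb2* (plasminogen activator inhibitor 2) was the 1 gene called higher by DESeq2, with an adjusted p of 0.000253. It had 166 reads with BMP-2, against 16 with no cytokine, and 1442 with IL-17A + BMP-2, against 380 with IL-17A, or ratios of 10.2 (6.09 to 18.2) and 3.32 (2.96 to 3.73). The level with IL-17A alone was above that with BMP-2 alone, so the libraries with and without BMP-2 overlapped. Among genes that averaged 1000 reads or more, which were picked out after their values were seen, 1 was 1.5-fold higher in both states, *Fmod*, although not from spliced reads, and 3 were lower. These were *Postn*, *Aldh1a1*, a retinaldehyde dehydrogenase, with 1277 reads with BMP-2, against 2038 with no cytokine, and 484 with IL-17A + BMP-2, against 780 with IL-17A (0.615 and 0.543), and *Ccdc80*, a secreted matrix-associated protein (0.656 and 0.663). Further examples were *Sned1*, a matrix protein (1.67 and 1.49), and *Hp*, the haemoglobin-binding protein haptoglobin (1.46 and 2.01), on the higher side, and *Adamts1*, a matrix metalloprotease (0.503 and 0.687), on the lower.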

How the data were processed

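Total RNA of the cultured PαS cells was turned into full-length cDNA and amplified (SMART-Seq v4), sequenced on an Ion Proton and analysed by the authors in CLC Genomics Workbench. The sources used here give neither its version nor the mapping settings. The build named in the submitters' processing notes is mm10. The cDNA carries no strand, so overlapping and antisense genes cannot be told apart. The deposited files hold counts of total and unique exon reads and of spliced reads per gene, before any normalization, and RPKM, which the authors derived from exon reads, exon length and the reads assigned to genes. RPKM is used here only for sums over marker lists.

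Counts of total exon reads were scaled by TMM, and genes averaging 50 reads or more over the libraries were kept. BMP-2 was tested with edgeR 4.0.16 in R 4.3.3 (quasi-likelihood, IL-17A as an additive term, Benjamini-Hochberg adjustment over 8607 genes). Python 3.11.15 served for ratios and exact intervals (scipy 1.17.1, numpy 2.4.6, pandas 2.3.3) and for figures (matplotlib 3.10.9). Scripts were tested on simulated data. A library at 0 reads was set to a floor of 3 reads.

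The genes, lists and tests were chosen with earlier results of these data known. Named are *Sp7*, *Bambi* and *Dlx2*, the 15 highest and 15 lowest genes at least 1.5-fold apart in both states by the smaller absolute log2 ratio, and from 26 lists up to 5 members by mean reads and up to 4 by ratio, the text taking some of these; 1 of the 15 highest is not reported here. Promoters are those of RefSeq. The alternatives were DESeq2 1.42.0, its size factors or library totals in place of TMM, filters of 10 and 200 reads or none, no IL-17A term, unique or spliced reads, a 2-fold limit, and each library left out.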

Additional observations from a re-analysis of the deposited data

Results flagged for a closer look

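In 21 of the genes taken by the rule, the BMP-2 ratios lay beyond counting error on opposite sides of 1. Over all genes tested the share was 18.5%. The rule took many genes for the same sign in both states, so the 21 cannot be set against that share. The 9 of the 21 that are described here are those whose values stand in the text. The difference between the IL-17A states was not tested, since each ratio rests on 1 library against 1. The ratio without IL-17A was the higher in 4 of these 9. *Notch2*, a Notch receptor, was at 4.72 without and 0.579 with IL-17A, *Lyz2* (lysozyme) at 3.10 and 0.705, *Col2a1*, the collagen of cartilage, at 1.57 and 0.342, and *Csf1*, the macrophage colony-stimulating factor, at 1.05 and 0.779. From spliced reads both ratios of *Csf1* were reversed, as given below. In the other 5 the ratio with IL-17A was the higher. The Notch target *Hes1* was at 0.760 without and 2.02 with IL-17A, the lysyl oxidase gene *Lox* at 0.584 and 1.17, the stress-response factor *Atf4* at 0.728 and 1.18, *Csf1r*, the receptor for CSF1, at 0.461 and 1.48, and the bone matrix protein gene *Sparc* at 0.938 and 1.20.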

How the results depend on the processing

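edgeR called 0 genes in each alternative, and DESeq2 called 5. The 4 fits that leave out 1 library also drop the IL-17A term and set 2 libraries against 1, whose lone library is assumed to vary like the others. They called 0 genes each, with 200 to 733 at an unadjusted p under 0.05. No paired analysis was possible because each condition had 1 library, although IL-17A stood in the model as a block of its own. The 283 higher and 326 lower genes became 82 and 99 at 2-fold, 487 and 608 with a filter of 10 reads, and 52 and 63 with a filter of 200, as the construction of these limits implies. Scaling and unique reads kept both counts within 1.5 times. Spliced reads gave 225 and 294 genes, of which 155 and 189 were among the 283 and 326, so that 54.8% and 58.0% of those remained. Over the named genes 922 of 1016 alternative values moved by less than counting error, 92 moved further and 2 reversed. Most of these totals come from scaling and unique reads, which changed little. From spliced reads 161 values moved by less than counting error, 85 moved further and 2 reversed. The reversals were those of *Csf1*, at 0.964 without and 1.12 with IL-17A, and the cause was not tested. Of 176 list counts 15 moved. From spliced reads 13 list counts moved and 31 did not. Depth limits the ratios of genes with few reads, and the lack of replicate libraries limits all of them.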
